A study of Mus musculus with 9 samples.

Results

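The core circadian clock of the liver was followed through 10 genes in 9 mouse liver RNA-seq libraries: Arntl (which encodes BMAL1), Clock, Npas2, Per1, Per2, Per3, Cry1, Cry2, Nr1d1 and Nr1d2. They were taken by gene name from the deposited tables, where each name matched 1 of 42188 genes. All 10 were among the 14603 genes with enough counts to be tested. The 9 libraries fall into 3 groups of 3. MSA_ConA mice were given 250 mg/kg of MSA, read here as the mesaconate of the study's title, into the peritoneum, and 6 h later 20 mg/kg of concanavalin A into a tail vein. ConA mice were given the same dose of this T cell-activating lectin without MSA, and Control mice were given phosphate-buffered saline by tail vein. Livers were taken 12 h after concanavalin A. All mice are labelled as wild-type C57BL/6J males, 8 weeks old and weighing 20 to 25 g. The labels give no time of day for the injections or the collection.

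The clock is a loop of transcription factors and their inhibitors. CLOCK, or its relative NPAS2, pairs with BMAL1 on E-box elements and switches on the Per, Cry and Nr1d genes. PER and CRY proteins then inhibit the pair, and NR1D1 and NR1D2 (REV-ERB alpha and beta) repress Arntl and Npas2 through RORE elements that ROR proteins activate. In mouse liver the Arntl and Npas2 transcripts are known to be high when those of Nr1d1, Nr1d2, Per3 and the output factor Dbp are low. Per1 is also known to respond quickly to glucocorticoids and to cAMP signalling.

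Promoter windows of the clock genes are shown for the members whose levels the results below turn on and whose window held an element of the loop. The windows come from RefSeq (GRCm38.p6), run from 250 bases before a transcript's start to 50 after it, and were present for 9 of the 10 genes (13 windows; Per2 is named only). Both strands were searched for the E-box CACGTG, found in 7.15% of all 32851 windows, the D-box TTATGTAA or TTACGTAA (1.06%), the RORE core TAGGTCA (2.61%) and the CRE half-site TGACGT (7.51%), none of which overlaps another in the windows printed. Sequences are written 5′ to 3′ on the gene's strand, with the matched element in capitals.
Per1, first start, E-box at -166, chr11:69098699-69098948, plus strand: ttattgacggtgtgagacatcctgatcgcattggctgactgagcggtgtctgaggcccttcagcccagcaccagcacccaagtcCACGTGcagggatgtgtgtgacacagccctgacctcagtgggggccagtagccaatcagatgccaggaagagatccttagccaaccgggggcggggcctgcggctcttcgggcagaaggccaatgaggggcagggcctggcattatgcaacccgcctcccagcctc
Per1, second start, CRE half-site at -132, chr11:69099902-69100151, plus strand: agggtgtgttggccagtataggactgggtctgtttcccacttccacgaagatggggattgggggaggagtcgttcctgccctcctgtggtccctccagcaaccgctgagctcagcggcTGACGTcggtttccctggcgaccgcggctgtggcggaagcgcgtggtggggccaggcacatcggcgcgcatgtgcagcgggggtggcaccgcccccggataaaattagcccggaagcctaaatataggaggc
Per3, D-boxes at -205 and -158, chr4:151044666-151044915, minus strand: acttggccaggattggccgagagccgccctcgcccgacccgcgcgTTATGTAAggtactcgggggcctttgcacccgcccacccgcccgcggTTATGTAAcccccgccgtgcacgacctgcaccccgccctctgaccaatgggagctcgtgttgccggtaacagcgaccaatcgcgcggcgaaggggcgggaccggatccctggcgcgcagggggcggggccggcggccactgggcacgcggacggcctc
Cry1, E-box at -60, chr10:85185055-85185304, minus strand: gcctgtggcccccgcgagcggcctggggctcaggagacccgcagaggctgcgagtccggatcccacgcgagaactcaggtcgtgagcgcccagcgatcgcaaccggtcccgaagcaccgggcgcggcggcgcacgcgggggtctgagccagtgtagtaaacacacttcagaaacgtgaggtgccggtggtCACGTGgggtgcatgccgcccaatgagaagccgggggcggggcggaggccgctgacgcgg
Arntl, second start, RORE core at +31, chr7:113207529-113207558, plus strand: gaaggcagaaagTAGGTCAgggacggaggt
The D-box is bound by DBP, TEF, HLF and the repressor NFIL3, whose own transcripts are described below beside that of Per3. The windows of Clock, Npas2, Cry2, Nr1d1 and Nr1d2 held none of these letters.

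The libraries divided by the number in their labels, and this bears on every result. Totals ran from 13294600 to 17276391 counts. Xist, the RNA of the inactive X chromosome in female cells, measured at most 0.484 CPM (counts per 1e6, scaled by TMM factors) in number 1, against 667 to 1131 CPM in numbers 2 and 3, although all 9 libraries are labelled male; libraries are therefore named by their labels. Cxcl10, an interferon-induced chemokine, measured 3505 CPM in the library labelled ConA 1, against 2.63 CPM in MSA_ConA 1, 13.9 CPM in Control 1 and 2.13 to 3.65 CPM in the others. Hepatocyte markers were high in all 9 libraries, and 5 of the 6 listed summed to 86261 to 145185 CPM. The 6 neutrophil markers summed to 408 CPM in ConA 1, 61.1 CPM in MSA_ConA 1, 9.01 CPM in Control 1 and 2.73 to 6.73 CPM in the others, with Ly6g, Cxcr2 or Retnlg at 0 in some libraries. The 8 skeletal muscle markers summed to 4254 CPM in MSA_ConA 3 and at most 343 CPM elsewhere. In bulk tissue, fewer cells of a type and less RNA per cell cannot be told apart.

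No clock gene was called between the treatment groups. By library number, 6 of the 10 were called, number 1 against numbers 2 and 3. Per1 was among them although its libraries numbered 1 lay on both sides of the others. With the group in the model, edgeR's quasi-likelihood test called Arntl, Npas2 and Per1 higher and Per2, Per3 and Nr1d2 lower in number 1 at a Benjamini-Hochberg adjusted p under 0.05. Of all genes tested, 19.1% were called higher and 19.2% lower in this comparison, so calls were common throughout the transcriptome. The median log2 fold change of the clock genes was -0.15, against -0.10 for all genes tested. The labels do not say what the number stands for, and it cannot be told apart from the other ways in which these libraries differ.

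**Figure D1:**
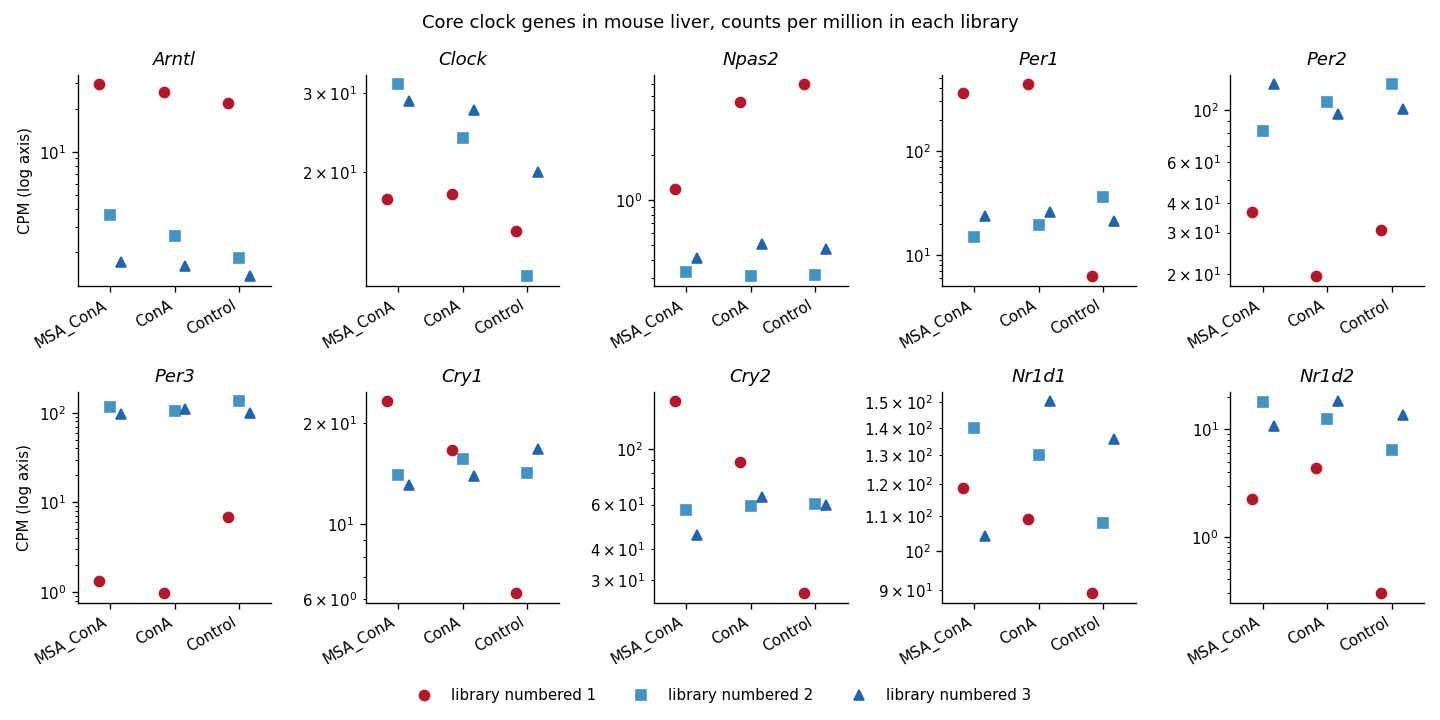
Level in CPM (log axis, a separate scale for each gene) of the 10 core clock genes in each library, by group from MSA_ConA through ConA to Control, with the marker showing the library's number. Arntl and Npas2 lie above all libraries numbered 2 and 3 in each library numbered 1, Per2, Per3 and Nr1d2 lie below them, and Per1 is high in MSA_ConA 1 and ConA 1 and low in Control 1.

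Among the activators, Arntl and Npas2 were high in number 1 and Clock was not. Arntl, at chr7:121567941-121685673 of the C57BL/6NJ assembly that the files use, measured 29.5 CPM in MSA_ConA 1, 26.2 CPM in ConA 1 and 22.0 CPM in Control 1. It measured 3.60 and 1.70 CPM in the MSA_ConA pair numbered 2 and 3, 2.57 and 1.59 in the ConA pair and 1.83 and 1.35 in the Control pair. The 2 sets of libraries did not overlap, and the log2 fold change was 3.64 (SE 0.30, edgeR adjusted p = 0.000264). Means were 25.9 ± 3.73 CPM in number 1 and 2.11 ± 0.839 CPM in numbers 2 and 3 (SD, n = 3 and 6). Arntl was also the steadiest of the called genes within number 1, where its highest and lowest libraries were 29.5 and 22.0 CPM. Npas2, which can take the place of CLOCK, measured 1.19 CPM in MSA_ConA 1, 4.55 CPM in ConA 1 and 5.96 CPM in Control 1, against 0.309 to 0.511 CPM in numbers 2 and 3. These are low levels, from 9 counts in MSA_ConA 1 to 80 counts in Control 1 and from 6 to 9 counts in each of the others. The ranges did not overlap, and Npas2 was called higher in number 1 (log2 fold change 3.15, SE 0.48, edgeR adjusted p = 0.00261). The Npas2 gene shares 555 bases with a processed pseudogene on the same strand and 283 bases with another on the opposite strand. Their reads may not have been kept apart from those of Npas2. Clock measured 17.4, 17.9 and 14.7 CPM in MSA_ConA 1, ConA 1 and Control 1, within the 11.7 to 31.4 CPM of the others (log2 fold change -0.46, SE 0.24, edgeR adjusted p = 0.151). Its gene overlaps Tmem165 on the opposite strand by 2016 bases, and whether counting used strand is not given in the sources used here.

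Among the inhibitors, Per3 showed the widest division of the 10 genes. Per3, at chr4:160601477-160644419, measured 1.32 CPM in MSA_ConA 1, 0.967 CPM in ConA 1 and 6.78 CPM in Control 1. It measured 116 and 96.3 CPM in the MSA_ConA pair numbered 2 and 3, 104 and 109 in the ConA pair and 135 and 101 in the Control pair. In counts these were 10, 10 and 91 in number 1 and 1870 to 2584 in the others, with no overlap (log2 fold change -5.45, SE 0.57, edgeR adjusted p = 0.000738). Per2 measured 36.7, 19.5 and 30.8 CPM in MSA_ConA 1, ConA 1 and Control 1. It measured 81.5 and 128 CPM in the MSA_ConA pair numbered 2 and 3, 108 and 95.8 in the ConA pair and 128 and 101 in the Control pair. Again the ranges did not overlap, with a smaller difference than for Per3 (log2 fold change -1.91, SE 0.26, edgeR adjusted p = 0.00167). Per3 lies wholly within the span that the deposited annotation gives Camta1 on the same strand, so reads of the 2 genes may not have been kept apart.

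Per1, the third Period gene, did not follow the other two. Per1, at chr11:71611467-71627165, measured 356 CPM in MSA_ConA 1 and 436 CPM in ConA 1, but 6.26 CPM in Control 1. In the others it measured 14.9 and 23.8 CPM in the MSA_ConA pair numbered 2 and 3, 19.3 and 26.0 in the ConA pair and 36.1 and 21.1 in the Control pair. So number 1 held both the highest and the lowest values of Per1. The call for number 1 as a whole (log2 fold change 3.26, SE 1.06, edgeR adjusted p = 0.0400) rests on MSA_ConA 1 and ConA 1. It was lost when either was left out (adjusted p = 0.279 without MSA_ConA 1 and 0.284 without ConA 1), and also without MSA_ConA 2, MSA_ConA 3, ConA 2, ConA 3 or Control 3 (adjusted p = 0.108, 0.0966, 0.111, 0.110 and 0.0606). It was lost as well under library totals (0.0726), with limma-voom (0.0892) and with limma on log2(FPKM + 0.1) (0.143) and on log2(FPKM + 1) (0.112). Within Control alone, a comparison added after the values were seen, Per1 was lower in the library numbered 1 than in the pair numbered 2 and 3 (log2 fold change -2.20, SE 0.31, with the lone library assumed to vary like the pair).

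Cry1 and Cry2, which encode the cryptochromes that join PER proteins in repression, were not called by number, and their libraries numbered 1 lay far apart. Cry1 measured 23.2 CPM in MSA_ConA 1, 16.6 CPM in ConA 1 and 6.26 CPM in Control 1, around the 13.1 to 16.7 CPM of the other libraries (log2 fold change -0.02, SE 0.35, edgeR adjusted p = 0.963). Cry2 measured 155 CPM in MSA_ConA 1, 88.6 CPM in ConA 1 and 26.7 CPM in Control 1, around the 45.2 to 64.6 CPM of the others (log2 fold change 0.47, SE 0.43, edgeR adjusted p = 0.401). Both genes thus had the same order in number 1, with MSA_ConA 1 highest and Control 1 lowest. Without Control 1, Cry2 was called higher in number 1 (log2 fold change 1.08, adjusted p = 0.00949), and within Control alone it was lower there (log2 fold change -1.18). Cry2 overlaps the transcript D930015M05Rik on the opposite strand, whose reads may not have been kept apart.

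Of the repressors of Arntl, Nr1d2 was called by number and Nr1d1 was not. Nr1d1 measured 119, 109 and 89.2 CPM in MSA_ConA 1, ConA 1 and Control 1. It measured 140.1 and 104 CPM in the MSA_ConA pair numbered 2 and 3, 130.0 and 151 in the ConA pair and 108 and 136 in the Control pair. These ranges overlapped, and the log2 fold change of -0.28 (SE 0.19, edgeR adjusted p = 0.277) did not pass. Nr1d1 shares 1075 bases with Thra on the opposite strand. Nr1d2, at chr14:11201479-11230480, measured 2.24, 4.35 and 0.298 CPM in MSA_ConA 1, ConA 1 and Control 1, that is 17, 45 and 4 counts. It measured 17.9 and 10.9 CPM in the MSA_ConA pair numbered 2 and 3, 12.5 and 18.3 in the ConA pair and 6.37 and 13.6 in the Control pair. There was no overlap, and Nr1d2 was called lower in number 1 (log2 fold change -2.83, SE 0.60, edgeR adjusted p = 0.00831). Altogether 2 clock genes had CPM ranges wholly above those of numbers 2 and 3 and 3 wholly below, where 14.7% and 19.3% of all genes tested did.

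**Figure D2:**
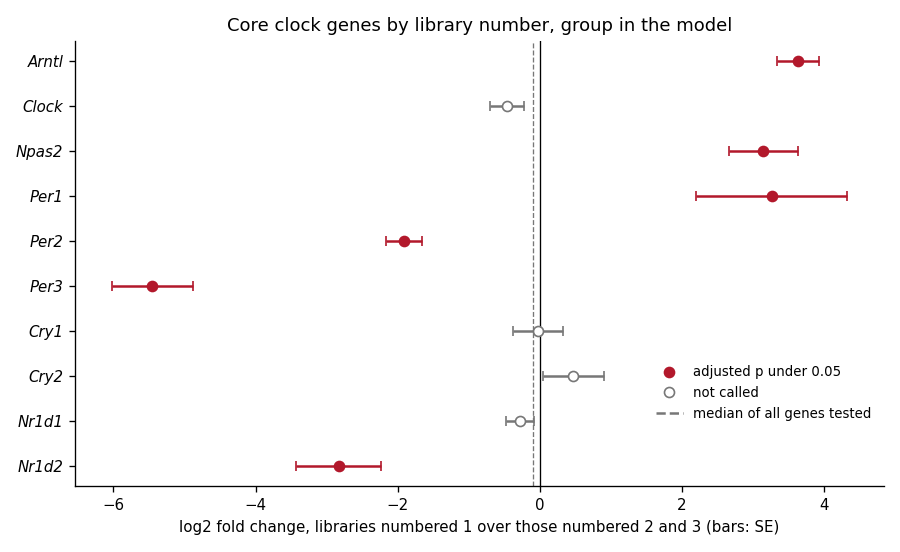
Log2 fold change of each core clock gene in the 3 libraries numbered 1 over the 6 numbered 2 and 3, from edgeR with the group in the model (bars are standard errors, filled points have an adjusted p under 0.05, the dashed line is the median of all genes tested). Arntl, Npas2 and Per1 are called higher, Per3 has the lowest value at -5.45, and Clock, Cry1, Cry2 and Nr1d1 are not called.

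The called genes other than Per1 were less sensitive to single libraries. With each library left out in turn, the log2 fold change ran from 3.54 to 3.81 for Arntl, 2.67 to 3.68 for Npas2, -2.13 to -1.71 for Per2, -6.57 to -4.93 for Per3 and -3.57 to -2.21 for Nr1d2, and each kept an adjusted p under 0.05. Scaling by library totals in place of TMM moved the median gene by log2 shifts of -0.81 in MSA_ConA 1, -0.57 in ConA 1 and -0.07 in Control 1 and of 0.15 to 0.34 in the others. Under totals 1083 genes were called higher and 5449 lower in number 1, against 2785 and 2807 under TMM. The clock genes called were then 2 higher and 6 lower, with Clock, Nr1d1 and Cry1 added among the lower and Per1 lost.

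Ratios between clock genes within a library do not depend on the scaling between libraries. On the deposited FPKM, which is per length of gene, Arntl over Nr1d1 was 0.263, 0.254 and 0.262 in MSA_ConA 1, ConA 1 and Control 1, and 0.0105 to 0.0272 in numbers 2 and 3. Arntl over Clock was 8.02, 6.92 and 7.07 in the same 3 libraries, and 0.273 to 0.739 in the others. Arntl thus stood at nearly the same ratio to Clock and to Nr1d1 in all 3 libraries numbered 1. Npas2 did not: Npas2 over Clock was 0.208 in MSA_ConA 1, 0.774 in ConA 1 and 1.23 in Control 1, against 0.0322 to 0.0816 in numbers 2 and 3. Arntl over Per3 was 74.0, 89.6 and 10.8, against 0.0445 to 0.102. Per1 over Per2 was 10.1 in MSA_ConA 1 and 23.2 in ConA 1 but 0.211 in Control 1, which lay within the 0.186 to 0.292 of numbers 2 and 3. Nr1d2 over Nr1d1 was 0.0231, 0.0488 and 0.00409 in number 1, and 0.0722 to 0.156 in the others. Cry1 over Cry2 was 0.314, 0.394 and 0.492 in number 1 and 0.452 to 0.608 in the others, which overlap.

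**Figure D3:**
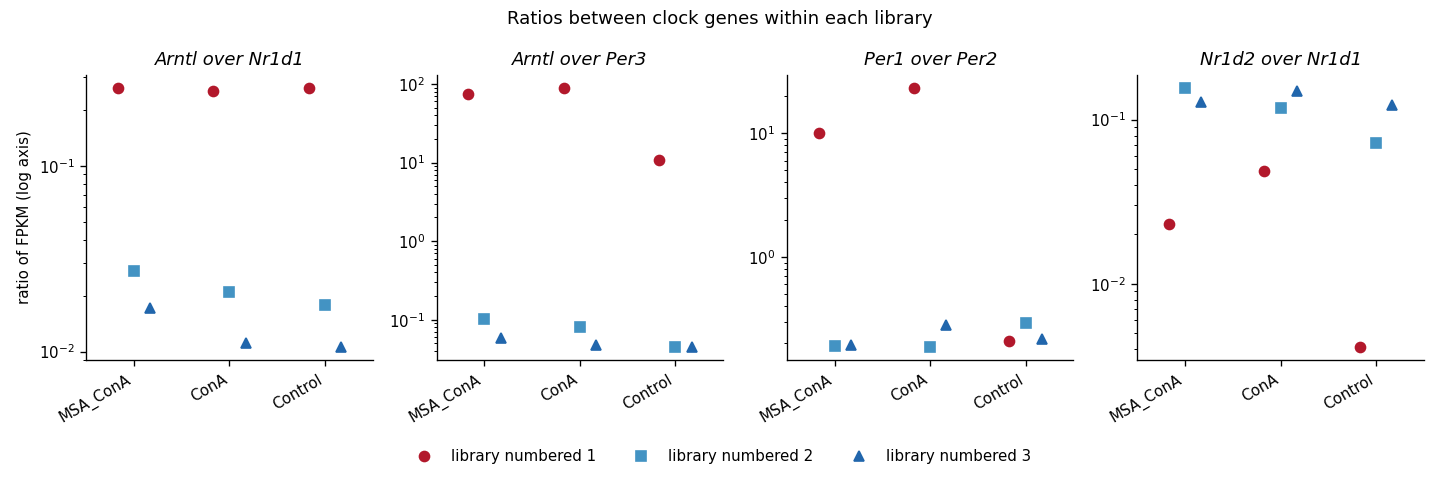
Ratios of FPKM between 2 clock genes within each library (log axes), by group from MSA_ConA through ConA to Control, with the marker showing the library's number. Arntl over Nr1d1 lies between 0.254 and 0.263 in the 3 libraries numbered 1 and at most 0.0272 in the others, while Per1 over Per2 is high in MSA_ConA 1 and ConA 1 alone.

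The order of the FPKM levels also differed between the 2 sets. In number 1 the mean FPKM was highest for Per1 (47.9 ± 41.0, SD, n = 3) and Nr1d1 (34.7 ± 5.37), followed by Cry2 (14.4 ± 10.4), Arntl (9.0 ± 1.41), Cry1 (5.16 ± 2.92), Per2 (5.0 ± 1.54), Clock (1.22 ± 0.135), Nr1d2 (0.925 ± 0.814), Npas2 (0.866 ± 0.539) and Per3 (0.315 ± 0.336). Neighbours in this order overlapped in range except Nr1d1 with Cry2 and Per2 with Clock. In numbers 2 and 3 the order of mean FPKM was Nr1d1 (41.0 ± 6.28, SD, n = 6), Per2 (18.0 ± 2.95), Per3 (11.3 ± 1.5), Cry2 (8.99 ± 1.09), Nr1d2 (5.20 ± 1.83), Cry1 (4.76 ± 0.412), Per1 (4.11 ± 1.27), Clock (1.71 ± 0.525), Arntl (0.714 ± 0.290) and Npas2 (0.0854 ± 0.0193). Ranges overlapped from Per3 through to Per1 and between Clock and Arntl, and were apart elsewhere. By mean FPKM, Per3 was thus the lowest of the 10 in number 1 and the third highest in the other libraries. In Control 1, however, Nr1d2 lay below Per3.

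Between MSA_ConA and ConA, which asks what MSA added, no clock gene passed the test. edgeR called 0 of the 10, as it called 0% of all genes tested, and no clock gene had an unadjusted p under 0.05, where 248 genes did. DESeq2 and limma-voom likewise called 0 clock genes. No clock gene had CPM ranges that were apart in the 2 groups, which 4.89% of all genes did. Arntl averaged 11.6 ± 15.5 CPM over the MSA_ConA libraries and 10.1 ± 13.9 CPM over those of ConA (SD, n = 3 each), and in both groups the library numbered 1 lay far above the pair numbered 2 and 3. The estimate furthest from 0 was that of Npas2 (log2 fold change -1.51, SE 1.39, edgeR adjusted p = 1.00).

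Between MSA_ConA and Control, and between ConA and Control, the outcome was the same. edgeR called 0 clock genes and 0% of all genes in both, with no clock gene at an unadjusted p under 0.05, where 730 and 563 genes were. DESeq2 called 55 and 2 genes in these comparisons, none of them a clock gene. No clock gene had CPM ranges that were apart, against 13.8% of all genes between MSA_ConA and Control and 12.3% between ConA and Control. The smallest unadjusted p of the 10 was that of Clock in MSA_ConA against Control (0.0613) and that of Per1 in ConA against Control (0.0931). Clock averaged 25.9 ± 7.48 CPM in MSA_ConA, 23.1 ± 4.87 in ConA and 15.5 ± 4.19 in Control (SD, n = 3 each). The log2 fold change of Clock was 0.75 (SE 0.35) in MSA_ConA and 0.58 (SE 0.35) in ConA over Control, and both comparisons share the Control libraries. Per1 averaged 132 ± 195 CPM in MSA_ConA, 160.3 ± 239 in ConA and 21.1 ± 14.9 in Control, and its log2 fold changes of 2.64 (SE 1.54) and 2.93 (SE 1.56) did not pass.

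Restricting the comparisons to numbers 2 and 3 left 14851 genes tested, of which 0% were called in any of the 3 comparisons, and 9 clock genes, since Npas2 had too few counts. No clock gene was called there. An unadjusted p under 0.05 was reached by 3578 genes between MSA_ConA and Control, 767 between MSA_ConA and ConA and 1725 between ConA and Control. Of the clock genes Clock alone reached it, against Control in both cases. Clock measured 31.4 and 28.9 CPM in MSA_ConA 2 and 3 and 23.9 and 27.5 CPM in ConA 2 and 3, against 11.7 and 20.0 CPM in Control 2 and 3. Its log2 fold change over Control was 0.93 in MSA_ConA (SE 0.25, edgeR adjusted p = 0.0985) and 0.68 in ConA (SE 0.25, edgeR adjusted p = 0.414).

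Single libraries of the same number were then set side by side. These are ratios of 2 libraries with no replicate check. Their intervals (95%, exact binomial) cover counting error only, and 2-fold is counted on CPM + 1. Per1, Per3, Cry1 and Cry2 differed from Control by far more in number 1 than in numbers 2 and 3. Clock did not: it was 1.21 times as high in ConA 1 and 1.18 times in MSA_ConA 1 as in Control 1. In numbers 2 and 3 the ratios of Clock to Control ran from 1.38 to 2.69. In ConA 1 over Control 1, Per1 was 69.7 times as high (56.1 to 87.5), Cry2 3.32 times (2.94 to 3.77), Cry1 2.66 times (2.04 to 3.50) and Nr1d2 14.6 times (5.33 to 55.9, from 45 and 4 counts), while Per3 was 0.143 times as high (0.0662 to 0.275). Thus 4 clock genes were at least 2-fold higher and 1 lower, where 18.3% and 17.7% of all genes were. In MSA_ConA 1 over Control 1, Per1 was 56.98 times as high (45.9 to 71.7), Cry2 5.80 times (5.15 to 6.55), Cry1 3.70 times (2.84 to 4.86) and Nr1d2 7.51 times (2.45 to 30.7), while Per3 was 0.194 times (0.0901 to 0.374) and Npas2 0.199 times as high (0.0878 to 0.397). That is 4 higher and 2 lower, where 15.9% and 18.4% of all genes were. Arntl, at 1.19 times in ConA 1 and 1.34 times in MSA_ConA 1, and Nr1d1, at 1.22 and 1.33 times, stayed close to Control 1. In MSA_ConA 1 over ConA 1, only Npas2 passed 2-fold, at 0.261 times as high (0.112 to 0.538, from 9 and 47 counts), where 11.5% of all genes were higher and 15.2% lower. Per1 was 0.818 times as high there (0.780 to 0.858), and Cry2 1.75 times (1.60 to 1.91).

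**Figure D4:**
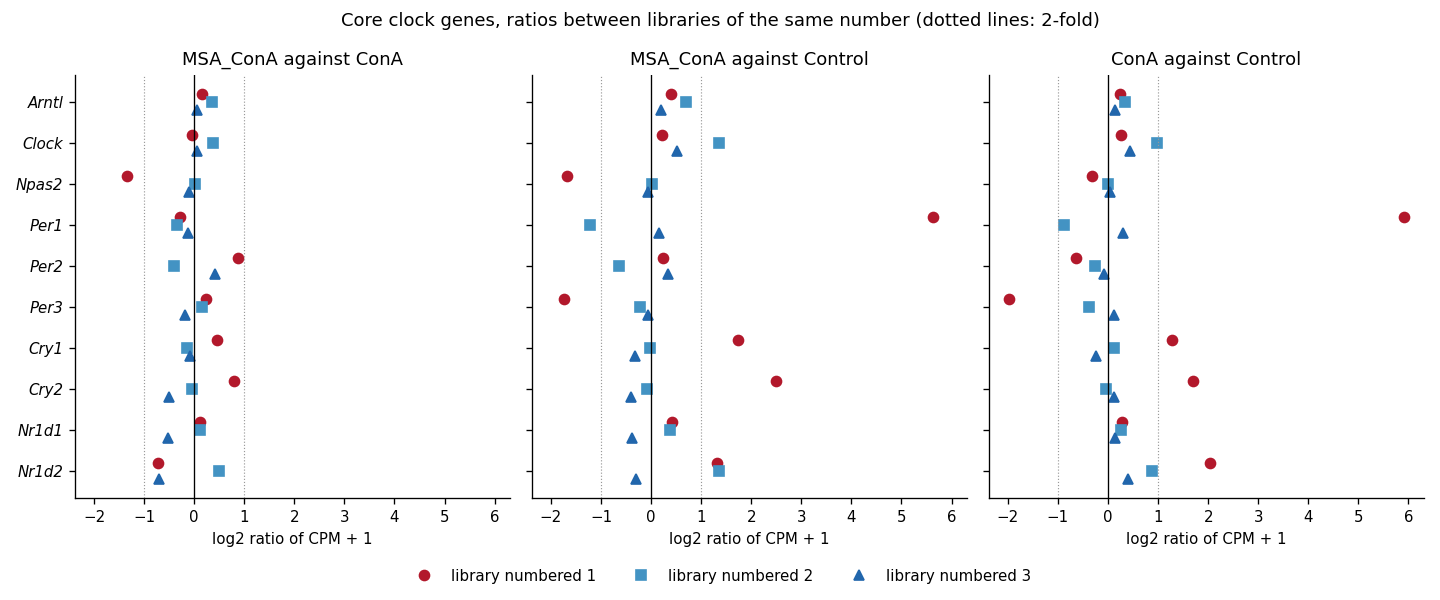
Log2 ratio of CPM + 1 of each clock gene between libraries of the same number, for MSA_ConA against ConA, MSA_ConA against Control and ConA against Control (dotted lines mark 2-fold). Per1, Cry1 and Cry2 of the pair numbered 1 lie above 2-fold against Control in both treated libraries and Per3 lies below it, while the pairs numbered 2 and 3 lie mostly within 2-fold.

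In the pairs numbered 3 no clock gene passed 2-fold in any comparison, where 4.38% of all genes did in MSA_ConA over ConA, 5.73% in MSA_ConA over Control and 0.897% in ConA over Control. In the pairs numbered 2 none did in MSA_ConA over ConA (1.86% of all genes) or in ConA over Control (2.81%). In MSA_ConA 2 over Control 2, Clock was 2.69 times (2.30 to 3.15) and Nr1d2 2.81 times as high (2.27 to 3.49), and Per1 was 0.414 times as high (0.359 to 0.478). There 2.23% of all genes were higher and 2.38% lower. The direction of Per1 in this pair was opposite to that in the pair numbered 1.

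The group differences in number 1 were set against those in numbers 2 and 3 in 1 model with a mean for each group and number class. Each effect in number 1 is 1 library against 1 library, so the spread comes only from the pairs numbered 2 and 3, with 3 degrees of freedom, and the lone libraries are assumed to vary like those pairs. The p-values therefore compare these libraries and do not separate a group effect from differences between single mice. For MSA_ConA against Control, 3 clock genes had a higher log2 effect in number 1: Per1 (log2 difference 6.39, SE 0.62, edgeR adjusted p = 0.000831), Cry2 (2.77, SE 0.28, adjusted p = 0.000958) and Cry1 (2.08, SE 0.31, adjusted p = 0.00328). Per3 had a lower one (-2.21, SE 0.46, adjusted p = 0.0111), a call lost with limma-voom (adjusted p = 0.0737) and with limma on log2(FPKM + 1), where the log2 difference was -0.45 (adjusted p = 0.306). Of all genes, 16% had a higher and 16.6% a lower effect. For ConA against Control, the same was found for Per1 (log2 difference 6.46, SE 0.62, edgeR adjusted p = 0.000790), Cry2 (1.69, SE 0.28, adjusted p = 0.00501), Cry1 (1.48, SE 0.30, adjusted p = 0.0113) and Nr1d2 (3.21, SE 1.01, adjusted p = 0.0480), and in the other direction for Per3 (-2.65, SE 0.46, adjusted p = 0.00601). Here 15.7% of all genes had a higher and 15.4% a lower effect, and both comparisons share the Control libraries. Nr1d2 lost its call without Control 3, ConA 2 or ConA 3 (adjusted p = 0.0878, 0.0901 and 0.0616), under library totals (0.0615), with limma-voom (0.244) and with limma on log2(FPKM + 0.1) (0.0698) and on log2(FPKM + 1) (0.422, log2 difference 0.73). Per3 lost its call in ConA against Control with limma on log2(FPKM + 1) (log2 difference -0.51, adjusted p = 0.262).

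For MSA_ConA against ConA the effect was higher in number 1 for Cry2 alone (log2 difference 1.08, SE 0.27, edgeR adjusted p = 0.0345), where 8.59% of all genes had a higher and 10.1% a lower effect. That call held without MSA_ConA 2 (adjusted p = 0.0313) and was lost without MSA_ConA 3, ConA 2, ConA 3, Control 2 or Control 3 (adjusted p = 0.107, 0.0685, 0.0975, 0.0576 and 0.0741), under library totals (0.0588) and with limma on log2(FPKM + 0.1) (0.0750). Arntl, Clock and Nr1d1 passed in none of these tests, with log2 differences between -0.69 and 0.41. Npas2 and Per2 also passed in none, with log2 differences of -2.26 to -0.45 for Npas2 and -0.48 to 0.86 for Per2. Beside the Per1, Cry1 and Cry2 values stand the following marker values: neutrophil markers, of which 6 of 6 were in the table, were highest in ConA 1 and next in MSA_ConA 1, Cxcl10 was high in ConA 1 and not in MSA_ConA 1, and sinusoidal endothelial markers summed to 103 to 207 CPM in number 1, against 227 to 284 CPM elsewhere. The 6 adipocyte markers summed to 493 CPM in MSA_ConA 1, 144 in ConA 1 and 15.9 in Control 1, in which Cry1 and Cry2 have the same order, and to 7.96 to 126 CPM elsewhere, with Adipoq, Plin1, Cfd or Lep at 0 in some libraries. The 6 Kupffer cell markers had the reverse order, at 119, 192 and 330.4 CPM in MSA_ConA 1, ConA 1 and Control 1, and 179.8 to 290.2 CPM elsewhere. Their part in the clock gene values was not tested.

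The genes that the clock drives or that regulate it were read from 6 lists. Of the 7 clock output and auxiliary factors, 3 were called lower and 1 higher in number 1. The lower ones were the D-box activators. Dbp, at 6.45, 6.00 and 10.3 CPM in MSA_ConA 1, ConA 1 and Control 1 and 99.7 to 251 CPM in the others, had a log2 fold change of -4.48 (SE 0.25, edgeR adjusted p = 3.82e-05). Tef (-2.76, SE 0.36) and Hlf (-2.61, SE 0.38) were lower by less. Nfil3, the D-box repressor, was higher (log2 fold change 4.51, SE 0.74, edgeR adjusted p = 0.00332), at 568 and 485 CPM in MSA_ConA 1 and ConA 1, 29.6 CPM in Control 1 and 8.39 to 15.7 CPM in the others. Per3, whose window holds the pair of D-boxes, was low in the same 3 libraries in which Dbp, Tef and Hlf were low. Nfil3 was high in MSA_ConA 1 and ConA 1 and far less raised in Control 1. Of all genes tested, 19.1% were called higher and 19.2% lower in number 1, and a link between these factors and Per3 was not tested.

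**Figure D5:**
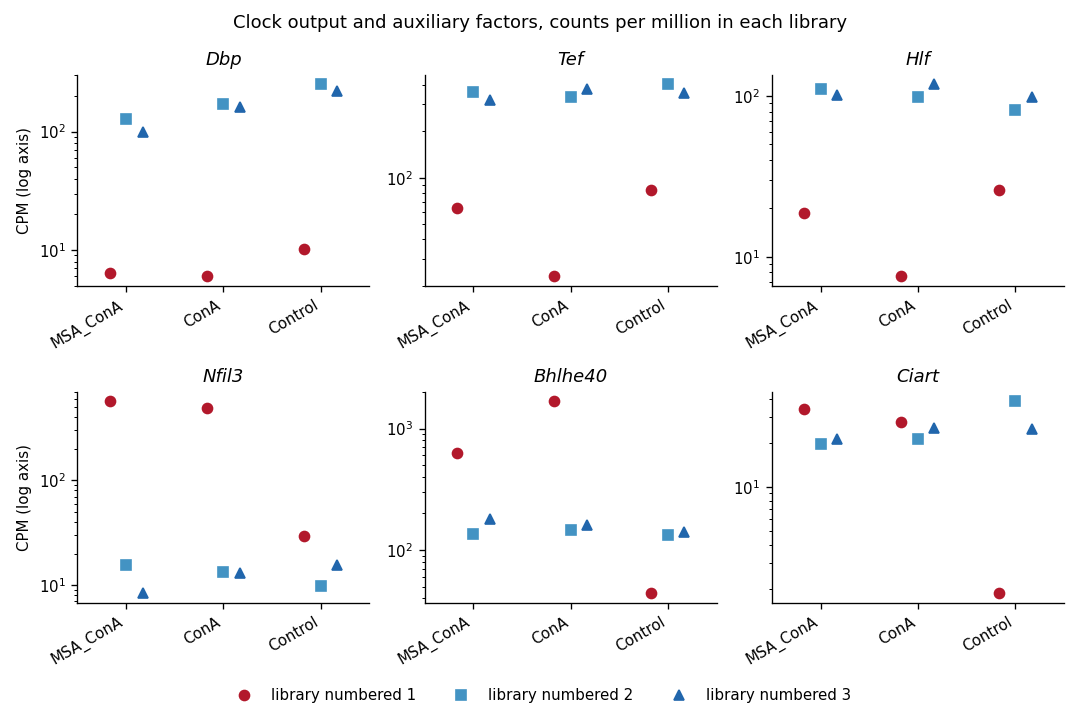
Level in CPM (log axis, a separate scale for each gene) of 6 clock output and auxiliary factors in each library, by group from MSA_ConA through ConA to Control, with the marker showing the library's number. Dbp, Tef and Hlf are low in all 3 libraries numbered 1, while Nfil3 and Bhlhe40 are highest in MSA_ConA 1 and ConA 1.

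Bhlhe40 and Ciart, chosen after their values were seen, were low in Control 1 and higher in MSA_ConA 1 and ConA 1, as Per1 was. Unlike Per1, Ciart in MSA_ConA 1 and ConA 1 lay within the range of numbers 2 and 3. Bhlhe40, a repressor that competes for E-boxes, measured 633 CPM in MSA_ConA 1, 1677 CPM in ConA 1 and 44.2 CPM in Control 1, around the 132 to 179.5 CPM of numbers 2 and 3. Ciart, a repressor of the CLOCK and BMAL1 pair, measured 34.0 and 27.9 CPM in MSA_ConA 1 and ConA 1 and 1.86 CPM in Control 1, against 19.6 to 38.7 CPM in numbers 2 and 3. Neither was called by number, and both had a higher log2 effect in number 1 than in numbers 2 and 3. In MSA_ConA against Control the log2 difference was 3.64 (SE 0.33) for Bhlhe40 and 4.82 (SE 0.46) for Ciart. In ConA against Control it was 5.07 (SE 0.34) and 4.36 (SE 0.45). Because of how the genes were chosen, these values describe the pattern and do not test it. Bhlhe41, of the same list, was high in ConA 1 alone, at 33.4 CPM. It measured 2.90 CPM in MSA_ConA 1, 1.56 CPM in Control 1 and 1.55 to 4.02 CPM in numbers 2 and 3.

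Of the RORE-binding activators and NR1D co-repressors, 7 of 8 were tested, and 2 were higher and 2 lower in number 1. The higher ones included Hdac3, the deacetylase that NR1D1 recruits, (log2 fold change 0.58, SE 0.15, edgeR adjusted p = 0.0158), and the lower ones were Tbl1x (-0.94, SE 0.22, adjusted p = 0.0128) and Ncor1 (-0.71, SE 0.20, adjusted p = 0.0233). Of 14 kinases, ubiquitin ligases and deubiquitinases of clock proteins, Csnk1d was higher and Prkaa2, Prkaa1 and Usp2 were lower. Prkaa2, a catalytic subunit of AMP-activated protein kinase, which marks CRY proteins for degradation, measured 18.7, 18.0 and 22.8 CPM in MSA_ConA 1, ConA 1 and Control 1 and 63.3 to 115 CPM in the others (log2 fold change -2.21, SE 0.25, edgeR adjusted p = 0.000888). Of 8 coactivators and chromatin partners tested of 9 listed, Parp1 (-1.11, SE 0.36) and Ep300 (-0.56, SE 0.18) were lower and none was higher. The median log2 fold changes of these 3 lists were 0.01, -0.26 and -0.42, against -0.10 for all genes tested. By number, 19.1% of all genes tested were called higher and 19.2% lower.

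Among 10 clock-controlled liver outputs, Elovl3 was higher and Cyp7a1 and Wee1 were lower in number 1. In this comparison 19.1% of all genes tested were called higher and 19.2% lower. Elovl3, a fatty acid elongase, measured 19.6, 91.8 and 524 CPM in MSA_ConA 1, ConA 1 and Control 1 and 0.515 to 3.15 CPM in the others (log2 fold change 6.98, SE 1.01, edgeR adjusted p = 0.00208). Cyp7a1, which sets the rate of bile acid production, measured 3.16, 6.09 and 51.0 CPM in MSA_ConA 1, ConA 1 and Control 1 and 438 to 1003 CPM in the others (-5.53, SE 0.99, adjusted p = 0.00441). Wee1, a cell cycle kinase, measured 0.263, 10.8 and 0.596 CPM in these libraries, against 11.4 to 24.5 CPM elsewhere (-3.03, SE 0.88, adjusted p = 0.0268). Among 5 glucocorticoid-responsive genes, Dusp1 (log2 fold change 2.44, SE 0.51) and Klf9 (1.73, SE 0.48) were higher and the list's median was 1.62. Klf9 measured 154 and 146 CPM in MSA_ConA 1 and ConA 1 and 20.6 CPM in Control 1, against 21.7 to 32.5 CPM in the others. It was thus high in MSA_ConA 1 and ConA 1, while Control 1 lay just below the lowest of the others. Tsc22d3, of the same list, went the other way: it measured 24.9 CPM in MSA_ConA 1, 39.0 CPM in ConA 1 and 106 CPM in Control 1, against 62.6 to 97.2 CPM in the others. Tsc22d3 was not called by number (log2 fold change -0.65, SE 0.35, edgeR unadjusted p = 0.0985). In the comparisons between groups edgeR called 0 genes of these 6 lists.

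The named genes most like Arntl across the 9 libraries, among 12030 compared by Pearson correlation of log2 CPM, were Atp6v1h (0.985), Serpina12 (0.984), Cyp7b1 (0.983), C6 (0.983) and Mup5 (0.981), the last of a family whose near-identical copies can share reads. The most opposite were Pcp4l1 (-0.985), Tppp (-0.982), Mir692-1 (-0.982), Foxo4 (-0.978) and Slc17a8 (-0.975). These values rest on the division by number: within the 6 libraries numbered 2 and 3 the same 5 alike genes correlated at 0.836, 0.712, 0.551, 0.617 and 0.609. Cyp7b1, for example, ranged from 295 to 544 CPM in number 1, against 14.1 to 24.0 CPM elsewhere. For Nr1d1, which did not divide by number, the most alike were Faf2 (0.967), Mapkap1 (0.927), Ubr2 (0.919), Prps1l3 (0.910) and Glod4 (0.909), and the most opposite Wtip (-0.922), March9 (-0.909), Cd79b (-0.900), Egfl7 (-0.898) and Arap3 (-0.891). Among the clock genes themselves, Nr1d2 correlated with Nr1d1 at 0.804 over the 9 libraries and at 0.847 within numbers 2 and 3, and Per3 with Arntl at -0.954 over the 9 and at 0.262 within numbers 2 and 3. All these correlations are descriptions over libraries that share a scaling.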

How the data were processed

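Liver RNA was extracted with Trizol and sequenced from 9 mice, 3 per group, per the labels' protocols. The authors deposited raw counts per gene and FPKM (counts scaled by gene length and 1 effective total per library) for the 9 libraries. These effective totals ran from 7434350 to 20151368, against count totals of 13294600 to 17276391, so the FPKM were not scaled by plain count totals. Per the submitters' processing notes, which give no roles, the software was listed as Bowtie 0.12.2 and the builds as mm8 and mm10, while gene identifiers and coordinates in the files are those of the C57BL/6NJ assembly. The sources used here do not give RNA selection, strand or counting tool. Files were grouped by library titles, and columns headed M were matched to MSA_ConA.

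Counts were tested with edgeR 4.0.16 (R 4.3.3) by quasi-likelihood with TMM factors, the default expression filter by group (14603 of 42188 genes kept) and Benjamini-Hochberg adjustment over all genes kept. CPM values use TMM factors (0.571 to 1.26), and 1 count was worth 0.0515 to 0.132 CPM. The group comparisons used 3 means (6 residual degrees of freedom), the library number was tested with the group in the model (5), and differences of effect with a mean for each group and number class (3). P-values reflect the spread among these libraries only. The alternatives tried were limma-voom (limma 3.58.1), DESeq2 1.42.0, other scalings and filters, an adjusted p under 0.01, limma on log2(FPKM + 1) and log2(FPKM + 0.1), only the groups compared, a replicate block, numbers 2 and 3 only and leaving out each library; the number class as a term and Control libraries only were added after the data were seen. Scripts were tested on simulated counts.

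The members, the gene lists and the tests were chosen with earlier results of these data known, so none of them is independent of those results. All 10 members are named; of each list, the 4 members with the smallest p by number at most; for likeness to Arntl and Nr1d1, the 5 highest and 5 lowest correlations among named genes. One list member that the rule would name is not reported here. Bhlhe40, Ciart and Bhlhe41 fall outside this rule. Bhlhe40 and Ciart were chosen after their values were seen, and Bhlhe41 is given beside them. Pairing by library number was checked by correlating deviations from group means. Same-numbered libraries correlated at 0.479 to 0.713 (number 1), 0.349 to 0.553 (number 2) and 0.303 to 0.472 (number 3), all above the bound of 0.1. Correlations between numbers 2 and 3 were as high (0.313 to 0.681). The check therefore cannot tell pairing by number from the division of number 1 from the rest. The main comparisons between groups used no pairing, and the replicate block was an alternative. No 2 libraries of a group agreed within counting noise (chi-square per degree of freedom 20.9 to 596). Promoter windows came from RefSeq (GRCm38.p6) and were searched by exact letters.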

Additional observations from a re-analysis of the deposited data

Results flagged for a closer look

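The clock genes listed here drew attention because the log2 difference between groups in the libraries numbered 1 was set apart from that in numbers 2 and 3 by an edgeR test with 3 residual degrees of freedom. Each group has 1 library numbered 1, whose spread is taken from the pairs numbered 2 and 3, so the test compares these libraries and does not separate a group effect from differences between single mice. For MSA_ConA against Control the log2 differences were 6.39 for Per1, 2.77 for Cry2, 2.08 for Cry1 and -2.21 for Per3. For MSA_ConA against ConA the log2 difference was 1.08 for Cry2. For ConA against Control they were 6.46 for Per1, 3.21 for Nr1d2, 1.69 for Cry2, 1.48 for Cry1 and -2.65 for Per3. What lies behind these differences was not tested.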

How the results depend on the processing

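Of the 6 clock genes called by number, Arntl, Npas2, Per2, Per3 and Nr1d2 kept direction and call under every alternative in which they were tested, and Per1 did not. In the comparisons between groups 0 clock genes were called under every alternative. Library number and TMM factor moved together, and 3 libraries per group limit the precision of every comparison. The cause of the changes listed here was not tested.

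With library number entered as a replicate block, 0 genes and 0 clock genes were called in each of the 3 comparisons between groups, so that the block changed no call. DESeq2 called 55 genes for MSA_ConA against Control and 2 for ConA against Control, in place of 0. At an adjusted p under 0.01, 2513 genes were called by number, and the differences of effect numbered 2075 (MSA_ConA against Control), 783 (MSA_ConA against ConA, 0 clock genes) and 1864 (ConA against Control, 3 clock genes). limma-voom called 1623 differences for MSA_ConA against ConA, where leaving out a library gave 1368 to 2403 and 0 to 1 clock genes, and library totals gave 0 clock genes; limma on log2(FPKM + 1) gave 3 for ConA against Control.

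Library totals moved the split of differences of effect to 956 higher and 5227 lower for MSA_ConA against Control, 762 and 2047 for MSA_ConA against ConA, and 1325 and 4145 for ConA against Control. The log2 fold change changed sign under library totals for Arntl (-0.082 in MSA_ConA and -0.12 in ConA, over Control) and, by number, for Cry2 (-0.33). By number, Cry1 was 0.036 with DESeq2 and 0.036 with relative log expression factors, and within Control Per1 was -2.20 and Cry2 -1.18. In numbers 2 and 3 only, MSA_ConA over Control was -0.19 for Cry1, -0.23 for Cry2 and -0.55 for Per1, MSA_ConA over ConA -0.10 for Cry1 and -0.26 for Cry2, and ConA over Control -0.083 for Cry1 and -0.35 for Per1. Per2 in MSA_ConA over Control was 0.0083 with the block and 0.0099 with the number class as a term. Per3 in MSA_ConA over ConA, close to 0 throughout, was 0.0019 with a floor of 1 CPM in 3 or more libraries, 0.0073 with DESeq2, 0.0079 with relative log expression factors, 0.065 with the block, 0.034 with library totals, 0.082 and 0.015 with limma on log2(FPKM + 0.1) and log2(FPKM + 1), 0.26 with limma-voom, 0.071 with the number class as a term, 0.012 in numbers 2 and 3 only and 0.018 with only the 2 groups compared.

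Leaving out 1 library at a time moved the log2 fold change of MSA_ConA over ConA across 0 for Arntl (-1.92 to 2.44), Clock (-0.0046 to 0.38), Cry1 (-0.18 to 0.26), Cry2 (-0.47 to 0.57), Npas2 (-2.20 to 0.55), Nr1d1 (-0.23 to 0.016), Nr1d2 (-0.83 to 0.30), Per1 (-3.05 to 2.53), Per2 (-0.32 to 0.51) and Per3 (-0.58 to 0.57). It did so for MSA_ConA over Control in Arntl (-1.66 to 2.83), Npas2 (-2.56 to 0.63), Nr1d1 (-0.021 to 0.27), Nr1d2 (-0.041 to 1.62), Per1 (-0.13 to 3.24), Per2 (-0.56 to 0.31) and Per3 (-0.73 to 0.41), and for ConA over Control in Arntl (-2.00 to 2.65), Cry1 (-0.014 to 0.57), Npas2 (-2.42 to 2.14), Per2 (-0.63 to 0.23) and Per3 (-0.72 to 0.41). By number it did so for Cry1 (-0.50 to 0.47) and Cry2 (-0.25 to 1.08), and none of these comparisons between groups passed the threshold.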
